A study of Caenorhabditis elegans with 2 samples.

Results

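The snRNA genes of Caenorhabditis elegans encode the short nuclear RNAs of the splicing machinery and the spliced leader RNAs used in trans-splicing. They were taken as every gene of biotype snRNA on the nuclear chromosomes in the Ensembl release 115 annotation of WBcel235, which gave 129 of 46890 annotated genes. All 129 have a symbol in RefSeq, and those symbols are used here. The question asked of the data was where NHR-47, a transcription factor of the nematode nuclear hormone receptor family, was bound near these genes in L1 larvae.

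The study was a chromatin immunoprecipitation experiment with sequencing (ChIP-seq) in 1 group of 2 biological replicates. Both replicates were whole hermaphrodite L1 larvae of strain OP481, of genotype unc-119(tm4063) III; wgIs481, collected 6 h after synchronization by bleaching and L1 starvation. The transgene wgIs481 encodes NHR-47 joined at its C terminus to a GFP-FLAG tag. The tagged protein was precipitated through its GFP, although another label names nhr-47 as the target of the antibody. There was no second condition, so no value below compares treatments, and no p-value is given. Whole animals were used, so bound sites of different cell types cannot be told apart, and the tagged transgene stands in for the endogenous protein.

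U1, U2, U4, U5 and U6 snRNAs assemble with proteins into the spliceosome, which removes introns. In nematodes, SL1 and SL2 RNAs donate a short leader to the 5′ ends of many mRNAs: SL1 mainly to the first genes of operons and to single genes, SL2 to downstream genes of operons. SmY RNAs are small nematode RNAs found together with the spliced leader machinery. snRNA genes carry compact promoters with a proximal sequence element read by the SNAPc complex. RNA polymerase II transcribes most of them, and RNA polymerase III transcribes U6 from promoters that also have a TATA box.

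The sequences just upstream of a few genes, with and without peaks, are shown for comparison. The first set is the 100 bases before the annotated 5′ ends of 3 SL2 genes that carried peaks of very different height, read 5′ to 3′ on the gene's strand from the RefSeq WBcel235 (ce11) genome. The capitals mark a run of 15 bases that all 3 share, beginning 65 bp before the 5′ end. It is the longest shared run in the stretch searched, 80 to 40 bp upstream. Outside that stretch, all 3 also share a longer run directly before the 5′ end, left in lower case.
sls-2.1 (II:5844765-5844864, plus strand): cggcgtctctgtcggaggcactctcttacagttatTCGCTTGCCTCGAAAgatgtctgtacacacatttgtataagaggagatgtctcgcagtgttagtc
sls-2.2 (II:5543498-5543597, plus strand): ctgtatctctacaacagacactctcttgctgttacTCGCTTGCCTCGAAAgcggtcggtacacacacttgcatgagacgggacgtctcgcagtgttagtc
sls-2.3 (II:5544274-5544373, minus strand): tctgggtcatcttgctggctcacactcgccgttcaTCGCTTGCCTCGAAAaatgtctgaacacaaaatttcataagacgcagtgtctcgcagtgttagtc
The same run, TCGCTTGCCTCGAAA, stood upstream of sls-2.4 as well, of no other snRNA gene, and within 100 bases upstream of 0 of 19973 protein-coding genes. The SL2 RNA of sls-2.1 is given next with its 22-base leader, the part transferred to mRNAs, in capitals.
sls-2.1 (II:5844865-5844974, plus strand): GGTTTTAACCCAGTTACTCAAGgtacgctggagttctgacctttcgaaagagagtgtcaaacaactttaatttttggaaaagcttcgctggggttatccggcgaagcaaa

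The second set shows 2 copies of U6 RNA identical over 102 bases, of which W05B2.8 had a peak and K09B11.11 had none, and another U6 gene with a peak, F54D8.7. The 700 bp window of K09B11.11 is the less unique of the pair, with 28.0% of its 31-base words found once in the genome against 88.5% for W05B2.8. In the upstream sequences that follow, capitals mark short words described further on, which are AACCCGC, the partly overlapping word GCGGAAC, the unrelated word TGTCGGT, and the box TATAAA between 40 and 10 bp before the 5′ end, each where it reads on the strand printed.
W05B2.8 (III:10989579-10989678, plus strand): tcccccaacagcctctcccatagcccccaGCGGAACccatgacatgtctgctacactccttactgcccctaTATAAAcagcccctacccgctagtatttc
F54D8.7 (III:5080899-5080998, minus strand): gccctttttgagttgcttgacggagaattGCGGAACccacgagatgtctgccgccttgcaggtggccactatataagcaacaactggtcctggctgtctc
K09B11.11 (IV:13435887-13435986, minus strand): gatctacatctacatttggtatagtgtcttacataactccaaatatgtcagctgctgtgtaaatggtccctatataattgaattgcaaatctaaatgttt

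The last set gives the upstream bases of the U1 gene and the U5 gene with the highest peaks in their classes, of a further SL2 gene, sls-2.8, and of the 2 U4 genes with identical RNAs, C52E4.8 with a peak and T11F9.15 without.
sup-6 (II:12944968-12945067, minus strand): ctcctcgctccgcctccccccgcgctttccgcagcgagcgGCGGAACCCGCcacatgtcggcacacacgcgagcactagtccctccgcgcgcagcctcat
F38E11.10 (IV:9444542-9444641, plus strand): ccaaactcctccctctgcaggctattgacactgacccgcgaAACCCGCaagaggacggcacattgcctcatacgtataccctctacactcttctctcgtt
sls-2.8 (III:12250365-12250464, plus strand): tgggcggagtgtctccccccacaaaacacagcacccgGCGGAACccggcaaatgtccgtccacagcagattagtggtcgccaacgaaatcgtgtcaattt
C52E4.8 (V:11980018-11980117, plus strand): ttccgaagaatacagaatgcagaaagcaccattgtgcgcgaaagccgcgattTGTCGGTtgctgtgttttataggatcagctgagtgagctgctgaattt
T11F9.15 (V:11478048-11478147, plus strand): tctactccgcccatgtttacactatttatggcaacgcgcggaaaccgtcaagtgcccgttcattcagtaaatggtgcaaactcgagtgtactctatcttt

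The data are lists of enriched regions on ce11, with a summit (the position of highest enrichment) and a signal value per region, which is the authors' enrichment score. A thresholded list of 5357 peaks, those that met the irreproducible discovery rate rule of the authors, was the basis for calling a gene bound, and its signals ran from 77.0 to 4060 with a median of 156. A relaxed list of 30000 regions was deposited for both replicates pooled and for each replicate. The depth per sample is unknown, since these lists hold no read counts. To place the replicates on 1 scale, the signal of each was divided by its median over the 5312 thresholded peaks found in both replicate lists, which was 66.8 in replicate 1 and 92.2 in replicate 2. This relative signal is 1 for a typical peak. A gene was counted as bound when a summit lay between 500 bp upstream and 200 bp downstream of its annotated 5′ end.

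Peaks of the thresholded list were found at 35 of the 129 snRNA genes, or 27.1% (exact 95% binomial interval 19.7% to 35.7%, counting error only; copies of one gene are not independent). The same window held a summit at 12.8% of protein-coding genes and at 8.89% of all annotated genes. In the pooled relaxed list, 54 snRNA genes (41.9%) had a summit, against 28.3% of protein-coding genes and 23% of all annotated genes. Both replicate lists had a summit at 47 of them (36.4%), against 22.4% and 17.1%. A summit in 1 replicate list alone was found at 11 snRNA genes, and 71 had none in either.

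The peaks at snRNA genes included some of the highest of the whole list. The 35 genes fell under 33 distinct summits, because sls-2.14 and sls-2.15 shared one and sup-39 and mir-1831 shared another. These summits made up 0.616% of the peaks. They supplied 3 of the 25 strongest peaks, 7 of the strongest 100 and 11 of the strongest 500. The median signal over the 35 genes was 286, or 1.83 times the median peak, against 227 over the protein-coding genes with a summit, and 27 of the 35 were above the list's median.

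**Figure D1:**
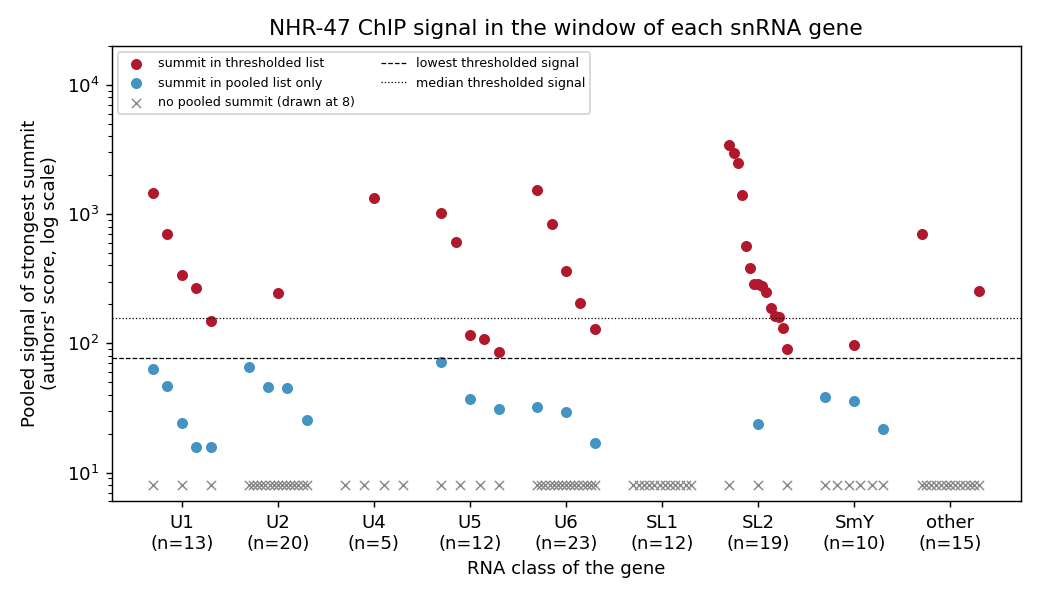
Pooled signal of the strongest summit at each of the 129 snRNA genes (vertical axis, log scale, authors' score) by RNA class; red points are in the thresholded list, blue points in the pooled list only, and crosses at the bottom are genes with no pooled summit. SL2 genes hold the 3 highest values, 3402, 2980 and 2484, and all 12 SL1 genes lie among the crosses.

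Replicate heights were close at most of the 35 genes. The thresholded list keeps peaks that were reproducible between these same replicates, so agreement was partly set by that list. Relative signals differed by less than 2-fold between replicates at 34 of the 35 genes, a share near the 94.9% of all paired peaks. The exception was sls-2.6. Replicate 2 was the higher at 21 of 35. Over all paired peaks, the SD of the log2 ratio between replicates was 0.498.

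**Figure D2:**
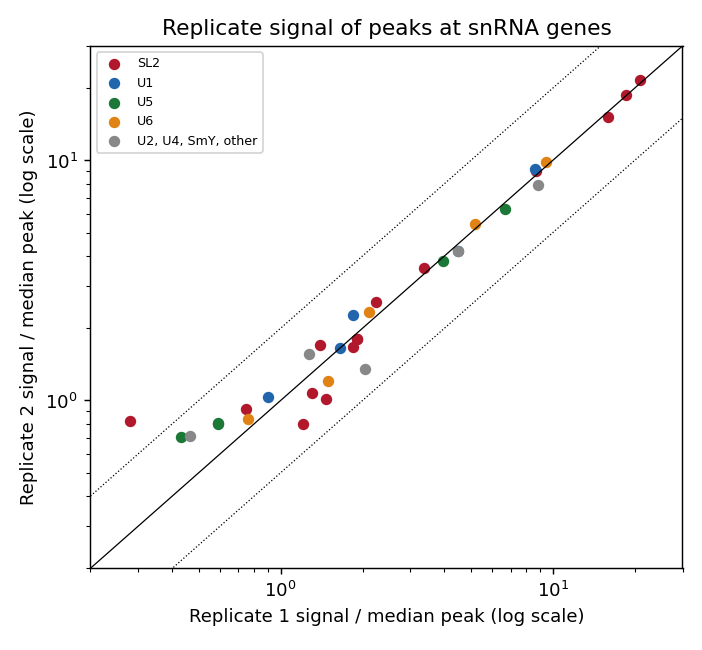
Relative signal of each peak at the 35 bound snRNA genes in replicate 1 (horizontal) and replicate 2 (vertical), both as multiples of the median peak on log scales, coloured by RNA class; the solid line is equality and the dotted lines mark a 2-fold difference. One point, sls-2.6 at 0.281 and 0.824, lies outside the dotted lines.

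The SL2 genes were the class most often bound, 15 of 19 (78.9%), against 12.8% of protein-coding genes. Of the 19, 18 carry an sls-2 symbol, and ZK1251.14 was placed with them by 82.7% identity of its RNA. The highest peak of any snRNA gene was at sls-2.4 (I:4172206-4172315), whose signal of 3402 ranked 2 in the list. Its relative signal was 20.9 in replicate 1 and 21.6 in replicate 2 (21.3 ± 0.538, SD, n = 2), and its summit stood 23 bp before the gene. The sls-2.1 gene (II:5844865-5844974) followed at rank 7, with 18.6 and 18.8 (18.7 ± 0.174, n = 2) and a summit 39 bp upstream. At sls-2.2 (II:5543598-5543707) the values were 15.99 and 15.2 (15.6 ± 0.539, n = 2), rank 17, with the summit 33 bp upstream. These 3 genes lie outside protein-coding genes, and no other snRNA gene reached a relative signal of 10 in either replicate.

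A step below these, sls-2.8 (III:12250465-12250575) had 8.67 and 9.05 (8.86 ± 0.267, n = 2). Its summit, 19 bp upstream, also lay in the promoter windows of tim-1, which encodes a timeless-related protein, and of Y75B8A.23. The sls-2.9 gene had 3.38 and 3.58 (3.48 ± 0.142, n = 2), and sls-2.7 had 2.24 and 2.58 (2.41 ± 0.241, n = 2), with a summit that also lay in the window of W06D4.3. These 6 SL2 genes were above the median peak by more than the difference between their replicates. The same held, at lower values, for sls-2.14, sls-2.15, sls-2.18 and sls-2.5, which are given next.

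The remaining bound SL2 genes were nearer to the typical peak. The shared summit of sls-2.14 and sls-2.15 had 1.91 and 1.81, and lay 7 bp inside sls-2.14 but 494 bp upstream of sls-2.15. Within introns of glr-2, a glutamate receptor gene, 3 SL2 genes each had their own peak: sls-2.18 with 1.85 and 1.67, sls-2.5 with 1.39 and 1.70, and sls-2.16 with 0.747 and 0.917. The sls-2.17 gene had 1.31 and 1.07, sls-2.13 had 1.21 and 0.799, and sls-2.6, whose summit lay 326 bp upstream and in the window of hgo-1, had 0.281 and 0.824. The 4 SL2 genes with no thresholded summit were sls-2.10, sls-2.11, ZK1251.14 and sls-2.12. The first 3 had no summit in the window in any list, and sls-2.12 had a pooled signal of 23.9.

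Similar SL2 genes differed in signal. The sls-2.3 gene (II:5544164-5544273) is the neighbour of sls-2.2, on the other strand, and their RNAs are 97.3% identical. Its relative signal was 1.47 and 1.02 (1.24 ± 0.317, n = 2), against 15.6 ± 0.539 at sls-2.2. The 100 upstream bases of the pair, printed above, are 70% identical and share the 15-base run. Over the same stretch sls-2.1 is 79% identical to sls-2.2 and 69% identical to sls-2.4. The sls-2.12 and sls-2.17 genes, at 96% upstream identity, had pooled signals of 23.9 and 187.

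None of the 12 SL1 genes had a summit in the thresholded, pooled or replicate lists. SL1 genes stand in the tandem repeats that also carry the 5S ribosomal RNA genes, and their windows are hardly unique. A median of 2.68% of their 31-base words (every stretch of 31 bases in the 700 bp window) occurred once in the genome, with a range of 0% to 34.6%. How the authors' processing treated reads with several positions is not given in the sources used here, and the part of repeated sequence in this result was not tested.

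**Figure D3:**
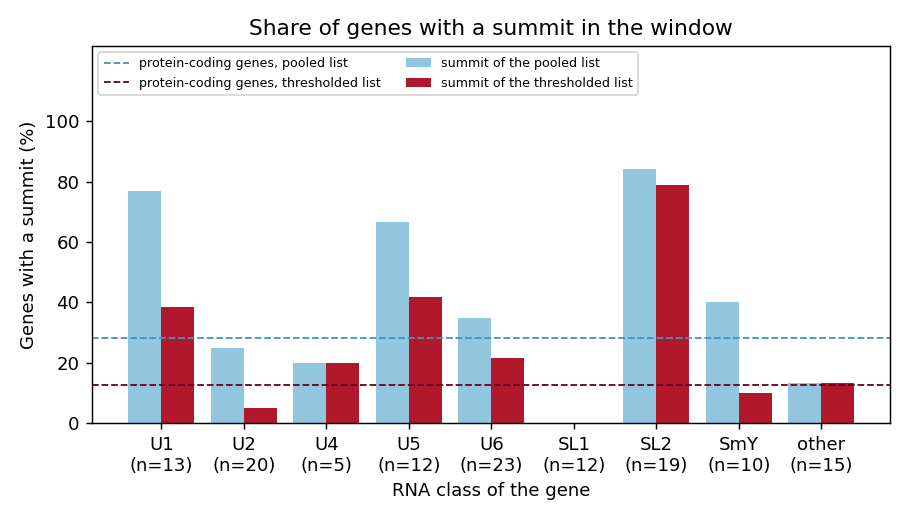
Share of genes in each RNA class with a summit in the window (vertical axis, percent; bars start at 0), for the pooled relaxed list in blue and the thresholded list in red; dashed lines give the same shares over protein-coding genes, 28.3% and 12.8%. SL2 stands at 84.2% and 78.9%, U1 at 76.9% and 38.5%, and SL1 at 0 in both. The pooled share of U1 counts the summit shared by T27E4.12 and T27E4.22 at both genes.

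U1 snRNA pairs with the 5′ splice site at the first step of intron recognition. Of 13 U1 genes, 5 (38.5%) had a thresholded summit and 10 (76.9%) a pooled one, against 12.8% and 28.3% of protein-coding genes. The strongest was sup-6 (II:12944803-12944967), in an intron of F58G1.7, with 8.62 and 9.22 (8.92 ± 0.418, n = 2). The sup-39 gene (II:6968394-6968558), in an intron of C15F1.5, had 4.48 and 4.21 (4.34 ± 0.187, n = 2). Both are known from suppressor mutations in their U1 RNA, and their summits lay 4 and 3 bp inside the gene. The 22-base mir-1831 locus, annotated with biotype snRNA, lies within sup-39 and so shares its peak.

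The other bound U1 genes had lower peaks. At T08G5.11 the relative signal was 1.84 and 2.28. The position of its summit differed between lists, at 158 bp from the 5′ end in the thresholded list, 172 bp in replicate 1 and -8 bp in replicate 2, and its window was 59.9% unique. At F08H9.11 it was 1.65 and 1.66, and the summit lay in the window of clec-57, a C-type lectin gene, too. At H27M09.6 it was 0.898 and 1.03, with a summit also in the windows of H27M09.5 and syp-4, which encodes a synaptonemal complex protein. The 8 unbound U1 genes included F08H9.10, at a pooled signal of 62.8, and C27H5.11, at 47.1. Also among them, T27E4.12 and T27E4.22 overlap each other and share a pooled summit, which is counted at both.

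U2 snRNA pairs with the branch site. Of 20 U2 genes 1 (5%) had a thresholded summit, F08G2.10 (II:13829305-13829491), and 5 (25%) had a pooled one, shares near the 8.89% and 23% of all annotated genes. The median window was 66.8% unique at U2 genes and 91.8% at SL2 genes, and the part of this in the counts was not tested. Its relative signal was 1.28 and 1.56 (1.42 ± 0.202, n = 2), 57 bp upstream of the 5′ end. F08G2.11, on the same chromosome, had no summit in its window in any list. Yet the RNAs of F08G2.10 and F08G2.11 are 99.5% identical and the upstream bases 93% identical, as the pair of sequences here shows.
F08G2.10 (II:13829492-13829591, minus strand): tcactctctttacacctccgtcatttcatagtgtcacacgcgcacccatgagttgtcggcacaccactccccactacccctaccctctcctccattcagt
F08G2.11 (II:13852687-13852786, plus strand): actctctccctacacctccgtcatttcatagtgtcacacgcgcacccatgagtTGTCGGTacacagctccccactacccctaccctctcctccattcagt
TGTCGGT, in capitals, is present in F08G2.11 and absent from F08G2.10. F08G2.9, a U2 gene that lies between them, had no summit in its window either, and its upstream bases are 78% identical to those of F08G2.10. In 6 further copies the U2 RNA is letter for letter that of F08G2.10, and none of them had a thresholded summit. The windows of these 6 copies were 49.8% to 73.9% unique and that of F08G2.10 66.6%. The highest unbound U2 genes were F11A5.14, with a pooled signal of 65.7, and R05D7.6, with 46.0.

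U4 snRNA chaperones U6 by base pairing until the spliceosome is activated. Of 5 U4 genes, 1 (20%) had a thresholded summit and 1 (20%) a pooled one, against 12.8% and 28.3% of protein-coding genes. The bound gene was C52E4.8 (V:11980118-11980261), with 8.804 and 7.90 (8.35 ± 0.641, n = 2) and its summit 49 bp upstream. This summit also lay in the promoter window of snr-4, which encodes an Sm core protein of the snRNPs and whose 5′ end is 395 bp from that of C52E4.8. The T11F9.15 gene has an identical RNA of 144 bases, upstream bases 49% identical and a window as unique (82.6% against 82.1%). It had no summit in its window in any list. F10D2.13 had a summit in its window in both replicate lists, with signals of 23.9 and 20.7, and none in the pooled list.

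U5 snRNA holds the exons to be joined. Of 12 U5 genes, 5 (41.7%) had a thresholded summit and 8 (66.7%) a pooled one, against 12.8% and 28.3% of protein-coding genes. F38E11.10 (IV:9444642-9444763) had 6.65 and 6.28 (6.46 ± 0.266, n = 2), and F32B5.9 (I:2688947-2689069), in an intron of the cathepsin gene cpz-1, had 3.96 and 3.80 (3.88 ± 0.111, n = 2). Their summits lay 34 and 15 bp upstream. The other bound copies were below the median peak in both replicates: ZK897.4 had 0.589 and 0.806, F42C5.12 had 0.588 and 0.802, and F38E11.11 had 0.430 and 0.708. Their summits stood 75 to 135 bp downstream of the 5′ end, past the 3′ end in the case of ZK897.4. F38E11.10 and F38E11.11 encode the same RNA, but their upstream bases are 54% identical and their pooled signals were 1028 and 84.9. F38E11.11 was the weakest bound snRNA gene, followed by sls-2.6 at 89.5, and the strongest unbound one was the U5 gene F07C6.5, at a pooled signal of 71.5.

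U6 snRNA forms the catalytic core of the spliceosome. Of 23 U6 genes, 5 (21.7%) had a thresholded summit and 8 (34.8%) a pooled one, against 12.8% and 28.3% of protein-coding genes. W05B2.8 (III:10989679-10989780), in an intron of the dynein gene dhc-4, had 9.47 and 9.87 (9.67 ± 0.279, n = 2). Its summit stood 26 bp upstream in the thresholded and replicate 1 lists, within the TATAAA box of the sequence above. In the replicate 2 list it stood 38 bp upstream, outside that box. F54D8.7 (III:5080798-5080898) had 5.19 and 5.42 (5.31 ± 0.163, n = 2), R07E5.16 had 2.12 and 2.34 (2.23 ± 0.152, n = 2), C28A5.7 had 1.49 and 1.21 (1.35 ± 0.196, n = 2), and Y9C9A.111 had 0.757 and 0.835 (0.796 ± 0.0547, n = 2). All 5 U6 summits of the thresholded list stood 26 to 57 bp upstream. The 102-base U6 RNA is encoded by 14 identical copies, of which 4 were bound. Windows of the 4 bound copies were 74.5% to 88.5% unique, and those of the 10 unbound ones 28.0% to 86.6%. C28A5.7 and the unbound K09C6.12 are 85% identical over the upstream bases.

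Of 10 SmY genes 1 (10%), smy-4, had a thresholded summit, 458 bp upstream, with 0.463 and 0.711. Together with smy-9, smy-10 and smy-11, 4 (40%) had a pooled one. The same shares were 8.89% and 23% of all annotated genes, and 12.8% and 28.3% of protein-coding genes. The windows of the SmY genes are 93.9% to 100% unique. A set of 15 genes could be given no RNA class, and 2 of them (13.3%) had a peak. Besides mir-1831, this was M163.13 on X, with 2.03 and 1.35 (1.69 ± 0.486, n = 2) and a summit 16 bp upstream. F56A12.5 had a summit in its window in both replicate lists, with signals of 10.7 and 11.3, and none in the pooled list. The other 12 genes of this set had no summit in the window in any list.

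Peaks at snRNA genes sat close to the annotated 5′ end. Over the 35 genes the strongest summit had a median position of 19 bp upstream (quartiles 53 bp upstream and 5 bp downstream), and the replicate lists gave 23 and 22 bp upstream. Over protein-coding genes with a summit in the same window the median was 178 bp upstream. A summit within 100 bp to either side was found at 29 of the 35 (82.9%), against 22.8% of those protein-coding genes. Annotated 5′ ends of protein-coding genes often mark a trans-splice site rather than the start of transcription, so the distances are not measured from the same kind of point. The summit was in no protein-coding promoter window at 29 of the 35 genes. At 16 it lay 80 to 15 bp upstream.

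**Figure D4:**
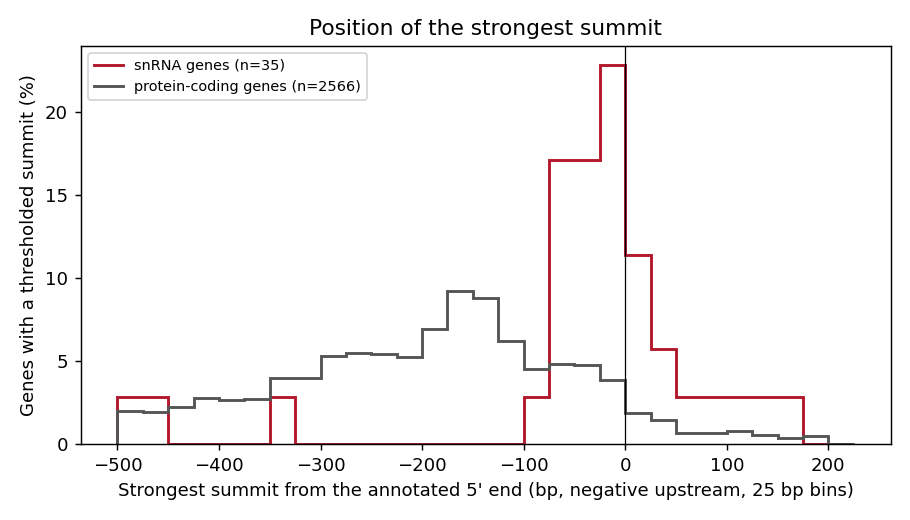
Position of the strongest thresholded summit relative to the annotated 5′ end (horizontal axis, bp in bins of 25, negative upstream) as a percentage of the genes with a summit (vertical axis), for 35 snRNA genes in red and 2566 protein-coding genes in grey. The snRNA genes have a median of -19 bp and the protein-coding genes of -178 bp.

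Several features of the genes that were not used to choose them were read beside the peaks. The 5′ end lay in an intron of a protein-coding gene at 18 of the 35 bound genes and in an exon at none, and the other 17 were intergenic. Of the 94 unbound genes, 43 began in an intron, 4 in an exon and 47 outside genes. On chromosome III 10 of 13 snRNA genes were bound, against 6 of 16 on I, 7 of 16 on II, 7 of 41 on IV, 4 of 40 on V and 1 of 3 on X. The share of all genes bound on each chromosome was not computed. The 10 on III are 6 SL2 and 4 U6 genes, and the 40 on V include all 12 SL1 genes. Those on IV include the U6 genes K09B11.11 to K09B11.16, with windows 28.0% to 48.6% unique. The chromosomes thus differ in the classes they hold and in uniqueness, and the part of each was not tested.

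Sequence uniqueness differed between bound and unbound genes over the whole set. Within classes the direction was not always the same, but several classes had only 1 or 2 bound genes. The median window was 90.01% unique at bound genes, 80.8% at unbound genes and 100% at protein-coding genes. None of the 26 snRNA genes whose window was under 50% unique had a thresholded summit. Of the 45 with a window at least 90% unique, 18 (40%) were bound, against 13.8% of 17700 protein-coding genes of that kind, and 14 of the 18 were SL2 genes. By class, the median of bound and unbound genes was 85.4% and 77.9% at U1, with 5 bound genes. It was 86.7% and 80.3% at U6 (5 bound) and 91.8% and 82.9% at SL2 (15 bound). At U5 (5 bound) it was 85.4% and 90.01%. The bound value was that of 1 gene at U2 (66.6% against 66.9%), U4 (82.1% against 84.9%) and SmY (97.3% against 100%). At genes with no class, 2 of them bound, it was 92.2% and 100%. All 12 SL1 genes count among the unbound. Within a class the ranges of bound and unbound genes overlapped at U1, U2, U5, U6, SL2 and SmY.

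**Figure D5:**
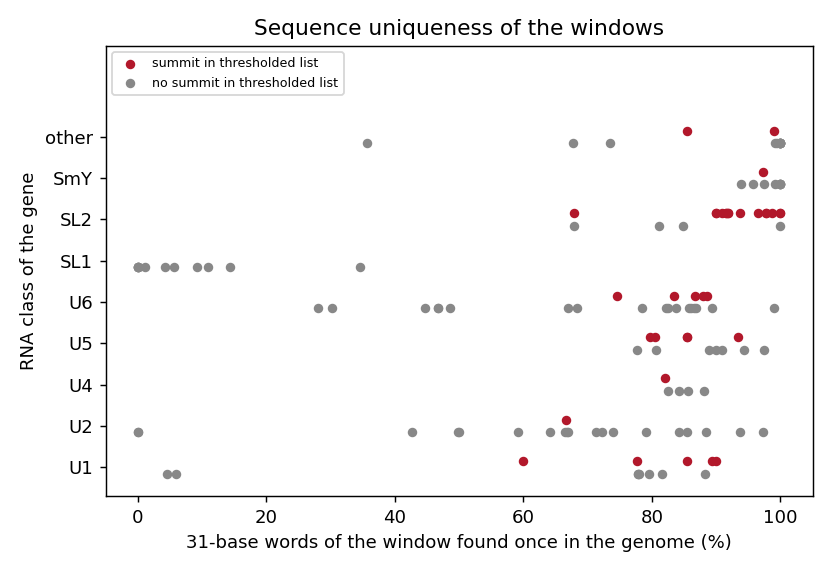
Percentage of the 31-base words in each gene's 700 bp window that occur once in the genome (horizontal axis) by RNA class (vertical axis), for genes with a thresholded summit in red and without one in grey. SL1 genes lie between 0% and 34.6%, while bound genes lie between 59.9% and 100%.

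The upstream words printed in capitals above were 3 of the most shared 7-base words found 80 to 40 bp before the 5′ ends of these genes, searched on both strands, and were picked from these sequences. AACCCGC was present at 33 of 129 snRNA genes (25.6%) and 0.130% of 19973 protein-coding genes, GCGGAAC at 32 (24.8%) and 0.235%, and TGTCGGT at 26 (20.2%) and 0.160%. AACCCGC can overlap with the word GCGGAAC, as in sup-6. CGGAACC, at 32 genes, and the word GGAACCC, at 31, were shared by more genes than TGTCGGT, but overlap with both of the former and are not followed separately. At least 1 of the 3 was present at 68 snRNA genes (52.7%) and at 0.516% of protein-coding genes. Their first bases stood at median distances of 58, 62 and 47 bp before the 5′ end. Proximal sequence elements of snRNA genes are known to lie in this zone. The search was limited to it, so the distances had to fall there and say nothing on whether the words are such elements.

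Counts at bound and unbound genes were furthest apart for AACCCGC, and no difference was tested. AACCCGC was present at 18 of 35 bound and 15 of 94 unbound genes, GCGGAAC at 11 and 21, and TGTCGGT at 6 and 20. By class, AACCCGC was present at 10 of 12 U5 genes, 8 of 13 U1 genes, 9 of 19 SL2 genes and 0 of 20 U2 genes, whereas TGTCGGT was present at 14 of 20 U2 genes. Among bound and unbound genes, AACCCGC was at 3 of 5 and 5 of 8 for U1, and 5 of 5 and 5 of 7 for U5. It was at 1 of 5 and 1 of 18 for U6, and 8 of 15 and 1 of 4 for SL2. The 12 SL1 genes, all unbound, and the 20 U2 genes, 19 of them unbound, held none. The part of class in the counts for AACCCGC was not tested. The 3 SL2 genes with the highest peaks include sls-2.1 and sls-2.2, which hold none of the 3 words. Summits lay a median of 59 bp downstream of the first base of AACCCGC, 45 bp downstream of GCGGAAC and 35.5 bp downstream of TGTCGGT. The TATAAA box was found, on either strand, 40 to 10 bp upstream at 8 of 23 U6 genes, 4 of them bound, at 0 of 19 SL2 genes, and at 7.42% of protein-coding genes.

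Within 50 bp to each side of the summits themselves, AGGTCA, the half-site letters known for many nuclear receptors in other species, was found at 1 of 33 summits (3.03%) and at 2.67% of all 5357, counting both strands. GAGAGA was found at 4 of 33 (12.12%), against 25.1% of all summits. AACCCGC was found at 4 of 33 (12.12%) and at 0.859% of all summits.

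Proteins that make or use snRNAs were examined as a list of 57 protein-coding genes chosen by symbol. The list was drawn up with earlier results of these data known, so its share with a peak is a description and cannot show enrichment. The symbols also brought in genes not known for that role, such as lsm-1 and sut-2. A thresholded summit stood in the promoter window of 28 of them (49.1%), against 12.8% of protein-coding genes, and a pooled one at 36. The Integrator complex, which cuts the 3′ ends of snRNA precursors, had 7 of 11 genes with a peak. The highest was ints-4, at a signal of 2241, with relative signals of 14.8 and 13.8 (14.3 ± 0.715, n = 2) and rank 25. The other 6 were ints-9 (signal 350), ints-2 (346), ints-8 (283), ints-5 (210), ints-11 (131) and ints-6 (114). Of the 28 summits, 17 also lay in the promoter window of a further protein-coding gene, those at ints-9, ints-2, ints-11 and ints-6 among them.

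The Sm proteins, which form the ring bound to snRNAs, had 6 of 7. The snr-4 peak is that of C52E4.8, and the others were snr-1 (3.37 ± 0.293, n = 2), snr-6 (2.32 ± 0.342, n = 2), snr-2 (signal 330), snr-3 (250) and snr-7 (148). The summits at snr-1, snr-2, snr-3 and snr-7 also lay in the promoter window of a further protein-coding gene, and that at snr-6 did not. Of the 7 Lsm genes found, 4 had a peak: lsm-7 at a signal of 259, lsm-6 at 218, lsm-1 at 214 and lsm-5 at 171. All of the Lsm genes found except lsm-1 encode proteins of the related ring on U6. The SNAPc genes, for the complex that reads the proximal element, had 1 of 8, a share close to the 12.8% of protein-coding genes. This was snpc-3.4, at 2.07 and 1.87 (1.97 ± 0.145, n = 2).

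Spliceosomal proteins with a peak were prp-8, the large U5 protein (3.02 and 2.16, 2.59 ± 0.607, n = 2), its partner eftu-2 (signal 258), snu-13 (236), rnp-2 (222) and prp-31 (103). The SL RNP genes sna-3 and sna-2 had signals of 262 and 188, the former under a summit shared with the ribosomal protein gene rps-3. Lower peaks were found at sut-2 (165), usip-1 (162) and smn-1, whose protein loads Sm rings (95.7). No thresholded summit was found at tbp-1, tgs-1, ncbp-1, ncbp-2, sart-3, smi-1 or snrp-200.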

How the data were processed

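Regions bound by NHR-47-GFP were read from ChIP-seq of 2 replicates of 1 group. Per the submitters' file index, the authors deposited narrowPeak lists on ce11 and ce10, 1 thresholded by the irreproducible discovery rate and relaxed ones that fed it. The aligner, caller, tool versions and read length were not given in the sources used here. The signal that the authors deposited is the caller's enrichment score, not scaled between lists. A deposited column of another type holds the summit's distance from the region start. The depth per sample is unknown, so values carry only the spread of 2 replicates.

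Here, the strongest summit between 500 bp upstream and 200 bp downstream of each annotated 5′ end was taken. Thresholded peaks were matched to replicate regions by an overlap of 1 bp. Annotation was Ensembl release 115, and sequence was RefSeq WBcel235, the build of the ce11 lists. Classes came from the symbol (40 genes), short RNA elements (69) or at least 80% identity over at least 60 bases (5), and 15 stayed unclassed. The named genes are the 12 of highest signal, up to 3 more per class, the 5 highest unbound ones and all bound genes of the machinery list; others were named to complete a class or a pair. The members, the machinery list and the words were chosen with earlier results of these data known. No test of the list was made. Python 3.11.15, numpy 2.4.6, scipy 1.17.1, edlib 1.3.9.post1 and matplotlib 3.10.9 were used. The assignment of summits to gene windows was tested on simulated summits, while the matching to replicate regions was not. Alternatives were other windows, region overlap, stronger peaks, single replicates, nearest 5′ ends, merged windows and windows clear of coding promoters.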

Additional observations from a re-analysis of the deposited data

How the results depend on the processing

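Of 34 alternative values, 11 moved, that is, a count by more than 1.5 times or a median by more than the SD between replicates (0.0925 for the relative signal, 1.77 bp for the position), and 23 did not. The 35 bound snRNA genes became 23 (22.8%) among genes whose window overlaps no protein-coding promoter window. Among windows at least 90% unique, an alternative chosen after seeing the data, 18 of 45 were bound (40%), 23 had a pooled summit and 21 a summit in both replicate lists. These are smaller sets of genes by construction. Other settings gave 27 to 37 bound genes, including 32 of 121 (26.4%) with overlapping windows merged; without 1 replicate the count was 32 to 35. The median relative signal of 1.83 became 2.08 with a window of 300 bp upstream to 100 bp downstream and 1.31 against the 2678 stronger peaks, whose own median is higher by construction, and was 1.80 to 1.93 without 1 replicate. The median summit position of -19 bp became -21 bp with the narrower window, -23 bp with 1000 bp upstream and -23 bp over the 2678 stronger peaks, and was -22 to -19.5 bp without 1 replicate. The 28 bound machinery genes became 20 to 31, and the 54 snRNA genes with a pooled summit 44 to 61 under the other settings. No paired analysis was possible because the study has 1 group.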
